A study of Mus musculus with 3 samples.

Results

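The genes described here are 37 mouse genes of the germline and of meiosis, chosen by name: every non-control probe whose gene name in the scanner files was on the list was taken. They were read by 46 of the 39429 probes on the arrays. Of the 37 genes, 31 had a probe well above background on all 3 arrays in mutant+CT or in wild type and were tested among 20389 genes. Of these 31, 29 were above background in both conditions and 2, Asz1 and Tdrd9, passed through mutant+CT alone.

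The samples were embryoid bodies, floating aggregates in which embryonic stem cells differentiate into many cell types, grown for 10 days in suspension without LIF, the cytokine that keeps stem cells undifferentiated. The mutant+CT group carried the genotype labelled Dido3deltaCT+HADido3CT: its Dido3 protein lacked the C-terminal region, and that region, encoded by exon 16, was overexpressed in the same cells. The wild-type group was the control grown in parallel. Each of the 3 arrays carried RNA of 1 mutant+CT and 1 wild-type biological replicate in different dyes, with mutant+CT in Cy3 on replicates 1 and 3 and in Cy5 on replicate 2. Neither the truncation alone nor the construct alone was measured in these samples, so their parts cannot be told apart. Replicate 2 was alone in its dye orientation, so the dye and that replicate cannot be told apart either. The strain, the number of cell clones and the driver of the construct are not given in the sources used here.

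Germ cells arise in the embryo as primordial germ cells and later enter meiosis, the division that pairs homologous chromosomes, recombines them and makes haploid gametes. Germ cells also keep transposons silent with small piRNAs, which are made and loaded in cytoplasmic granules called nuage. In mouse somatic cells many genes of these programmes are held silent by DNA methylation of CpG-rich promoters and by PRC1.6, a Polycomb complex that reaches DNA through E2F6 and through MGA with MAX, and embryonic stem cells transcribe some of them at low level.

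Most germline and meiosis genes had a higher signal in mutant+CT than in wild-type embryoid bodies, but none passed the adjusted test and the size of the difference varied widely between the arrays. The log2 ratio of mutant+CT over wild type had a median of 1.30 over the 31 tested members, against -0.0025 over all genes tested. In such bulk samples, more cells of a type and more RNA per cell cannot be told apart. A mean ratio above 0 was found for 28 of the 31 members, against 10137 of the 20389 genes tested. Without replicate 3 it was found for 24 members, where the median over all genes was -0.0068. Of the 31 members, 20 were higher in mutant+CT on every array and 0 were lower on every array, where 20.3% and 17.4% of all genes tested were higher and lower on every array. At least 2-fold higher on every array were 5 members, against 1.9% of all genes, and at least 2-fold lower were 0, against 0.991%. With limma and Benjamini-Hochberg adjustment over all genes, 0 of 31 members had an adjusted p under 0.05, as did 0% of all genes. At an unadjusted p under 0.05 there were 16 members, all higher in mutant+CT, against 9.04% of all genes higher and 6.7% lower. The members with the smallest adjusted p in limma were Tdrd5 at 0.0901 and Cyct at 0.0941, the only 2 under 0.1, as were 1.46% of all genes. The intensities of the groups did not overlap for 10 members, all higher in mutant+CT, against 9.51% of all genes higher and 6.45% lower.

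The median of the members was 0.31 on replicate 1, 0.90 on replicate 2 and 2.34 on replicate 3. The SD of the ratios over all genes was 0.77, 0.74 and 1.02 on the same arrays, so replicate 3 was also the array with the widest ratios overall. Replicate 3 gave the largest of the 3 ratios for 28 of 31 members and replicate 1 the smallest for 27, against 34.5% and 30.7% of all genes. The intensity in mutant+CT was highest on replicate 3 for 25 members, against 32.9% of all genes, and the intensity in wild type was lowest on replicate 3 for 20, against 31.6%. Without replicate 3 the median of the members was 0.68, and the means of Sycp3, Dmc1, Rec8 and Mei1 turned to -0.32, -0.18, -0.30 and -0.050. Without replicate 1 the median was 1.80. At least 2-fold higher on both remaining arrays were 13 members without replicate 1 (3.7% of all genes), and 5 without replicate 2 or without replicate 3 (4.73% and 2.46% of all genes). Without replicate 1, limma called Cyct, Syce1 and Gtsf1 at an adjusted p of 0.0244, 0.0469 and 0.0469, beside 0.721% of all genes. Members that passed the background filter only where they are high had to differ, so all 37 were also counted with no filter: 33 had a mean ratio above 0, 21 were higher and 1, Spo11, was lower on every array (17.2% and 15.3% of all genes without the filter), and the median was 1.03.

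**Figure D1:**
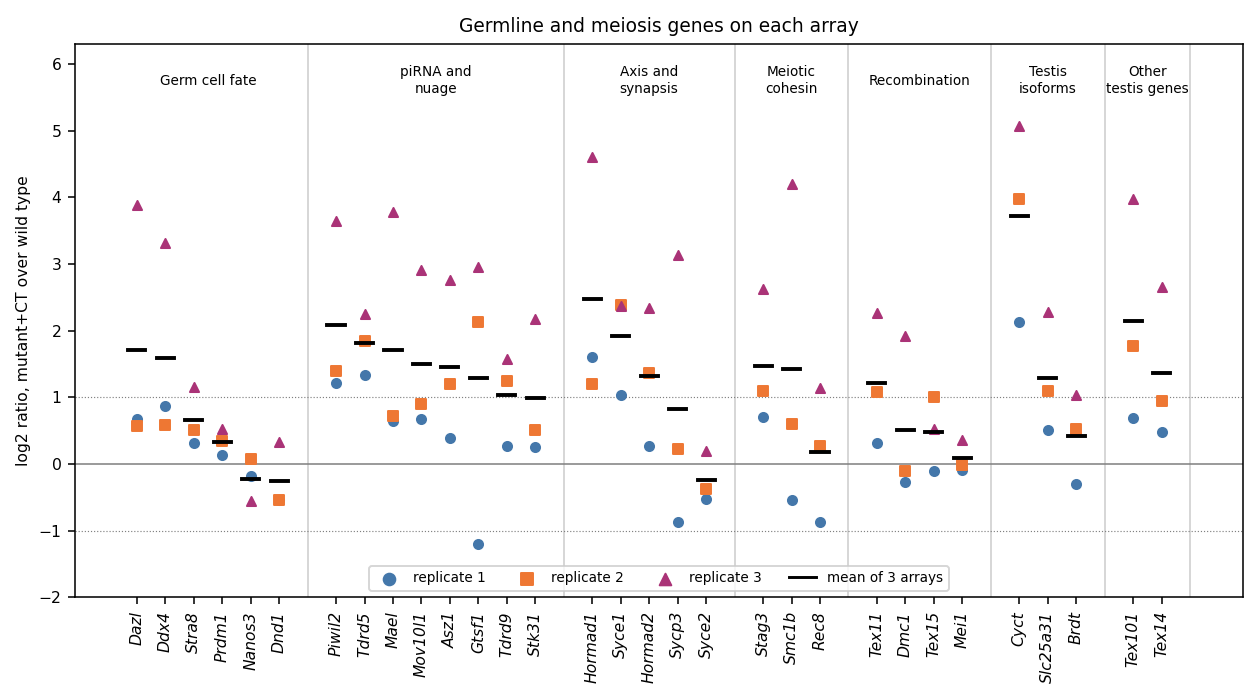
Log2 ratio of mutant+CT over wild type for the 31 tested germline and meiosis genes, grouped by role; points are the 3 arrays, bars the mean, and dotted lines 2-fold. Replicate 3 lies highest for 28 genes, and Cyct, Hormad1, Piwil2, Syce1 and Tdrd5 lie above the upper dotted line on every array.

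The promoters of the members are shown because most of these genes were higher on every array and because germline promoters are known targets of PRC1.6. RefSeq promoter sequence (GRCm38.p6) was matched by symbol for 31 of 37 members, and the 250 bases before each start were searched on both strands for TCCCGC, an E2F-like motif, and for CACGTG, the E-box that MAX dimers bind. The following lines give 4 of the 5 members that were at least 2-fold higher on every array, and Ddx4 and Mael, which hold both motifs. Capitals mark the motifs, which may appear as GCGGGA on the strand shown. The windows are chr2:76360454-76360703 (minus strand) for Cyct, chr1:156303349-156303598 (minus) for Tdrd5, chr3:95559427-95559676 (plus) for Hormad1, chr7:140787855-140788104 (minus) for Syce1, chr13:112652311-112652560 (minus) for Ddx4 and chr1:166238745-166238994 (minus) for Mael.
Cyct: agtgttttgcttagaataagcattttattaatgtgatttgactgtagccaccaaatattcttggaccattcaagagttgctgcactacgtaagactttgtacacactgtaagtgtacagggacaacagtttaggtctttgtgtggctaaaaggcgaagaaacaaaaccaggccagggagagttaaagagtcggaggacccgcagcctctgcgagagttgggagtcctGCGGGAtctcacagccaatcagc
Tdrd5: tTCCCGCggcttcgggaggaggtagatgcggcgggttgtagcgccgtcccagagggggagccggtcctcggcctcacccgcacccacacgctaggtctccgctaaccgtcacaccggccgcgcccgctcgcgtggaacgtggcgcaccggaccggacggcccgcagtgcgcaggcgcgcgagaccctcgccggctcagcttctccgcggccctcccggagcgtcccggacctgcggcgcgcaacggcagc
Hormad1: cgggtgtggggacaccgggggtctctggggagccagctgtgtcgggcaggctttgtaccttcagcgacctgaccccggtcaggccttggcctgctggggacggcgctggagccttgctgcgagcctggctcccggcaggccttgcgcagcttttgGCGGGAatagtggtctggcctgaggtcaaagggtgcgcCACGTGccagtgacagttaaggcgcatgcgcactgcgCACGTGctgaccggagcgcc
Syce1: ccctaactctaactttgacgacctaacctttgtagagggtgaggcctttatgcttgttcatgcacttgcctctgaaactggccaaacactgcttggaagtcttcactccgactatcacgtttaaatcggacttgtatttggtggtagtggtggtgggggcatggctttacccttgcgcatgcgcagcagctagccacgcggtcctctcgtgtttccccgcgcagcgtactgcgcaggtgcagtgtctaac
Ddx4: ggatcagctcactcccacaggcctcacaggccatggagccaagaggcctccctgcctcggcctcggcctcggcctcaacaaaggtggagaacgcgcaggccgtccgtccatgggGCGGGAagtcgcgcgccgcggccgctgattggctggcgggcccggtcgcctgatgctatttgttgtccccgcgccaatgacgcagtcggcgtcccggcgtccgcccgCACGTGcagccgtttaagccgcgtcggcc
Mael: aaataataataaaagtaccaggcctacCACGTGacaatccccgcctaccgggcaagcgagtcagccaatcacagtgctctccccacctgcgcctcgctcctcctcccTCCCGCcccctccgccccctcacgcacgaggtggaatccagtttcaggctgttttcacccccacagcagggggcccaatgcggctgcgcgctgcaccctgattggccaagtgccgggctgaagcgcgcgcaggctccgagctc

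A gene with several annotated starts was counted as holding a motif where any of them did, and by its most CpG-rich start. The E-box stood in 14 of 31 member promoters (45.2%), against 6.86% of the 27025 genes with a promoter and 7.61% of the 17492 protein-coding ones. The E2F-like motif stood in 11 of 31 (35.5%), against 18.8% of all genes and 24.2% of protein-coding genes. Both motifs stood in 5 members, Ddx4, Hormad1, Mael, Sycp3 and Syce2, which is 16.1% against 1.98% of all genes, 2.68% of protein-coding genes and 5.58% of protein-coding genes with at least 15 CpG. The member promoters held a median of 15 CpG, with 40 in Tdrd5 and 3 in Nanos3, against 6 over all genes and 11 over protein-coding genes. Among protein-coding genes with at least 15 CpG the E-box share was 11.7% and the E2F-like share 45.3%. Within the members, the E-box stood in 8 of 18 that were higher on every array and in 6 of the other 13. The E2F-like motif stood in 6 of 18 and in 5 of the other 13. These 13 include Tdrd1, Taf7l, Sycp1 and Sycp2, which were not tested, so they are not all members found not to be higher. Of these untested genes, Tdrd1, Taf7l and Sycp1 hold the E-box and none holds the E2F-like motif. A match of letters is a description and shows no binding.

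**Figure D2:**
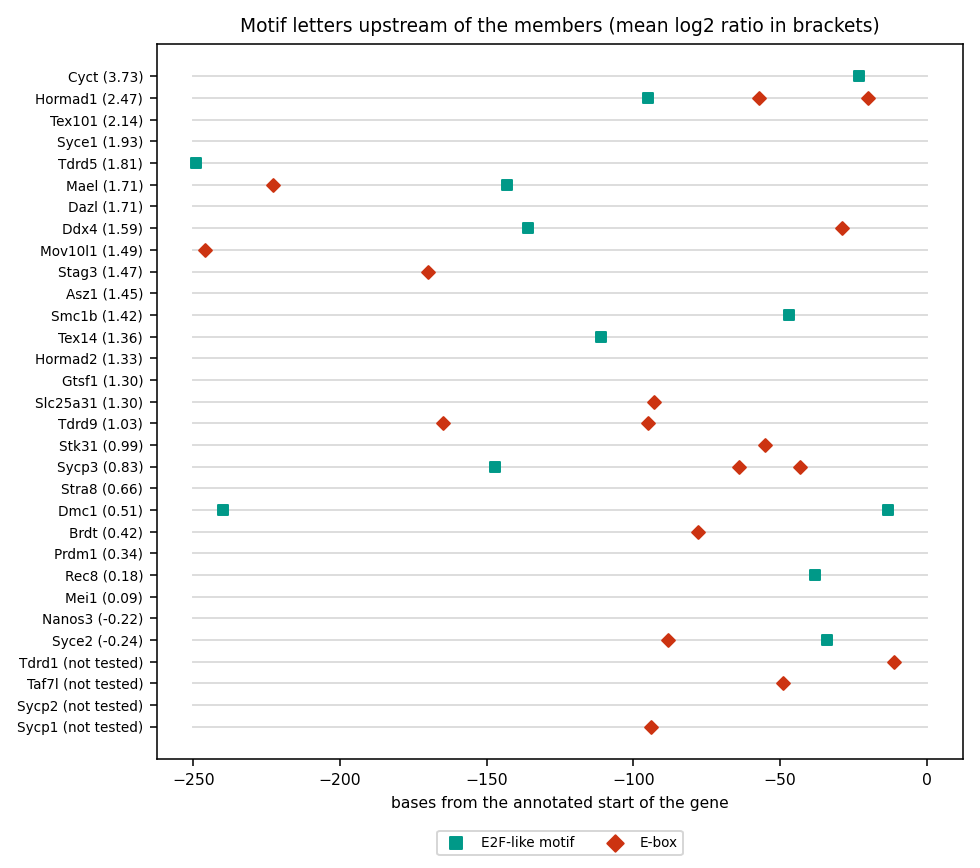
Position of the E2F-like motif (squares) and the E-box (diamonds) in the 250 bases before the annotated start of 31 members, ordered by their mean log2 ratio; for genes with several starts the one with the most motifs is drawn. Motif-bearing promoters are spread over the whole order, from Cyct at 3.73 to Syce2 at -0.24.

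Of the 6 genes of germ cell fate, 4 were higher in mutant+CT on every array (20.3% of all genes), and the 6 had a median log2 ratio of 0.50. Ddx4, the RNA helicase known as mouse vasa, had intensities of 534, 1020 and 3310 in mutant+CT on replicates 1, 2 and 3, against 292, 683 and 333 in wild type. It was higher in mutant+CT on every array, but the groups overlapped, since mutant+CT of replicate 1 lay below wild type of replicate 2. Its log2 ratio was 1.59 ± 1.50 (SD, n = 3; limma adjusted p = 0.282), and its probe lies at chr13:113388616-113388675 of mm9. Dazl, an RNA-binding protein that licenses germ cells for gamete development, had 730, 1010 and 1441 in mutant+CT, against 459, 680 and 97.3 in wild type. Its groups did not overlap, and the low wild-type value of replicate 3 went with a ratio of 3.89 there, against 0.67 and 0.57 on replicates 1 and 2. Stra8, which opens meiosis in response to retinoic acid, had a ratio of 0.66 ± 0.44. Prdm1, the repressor that starts the germ cell fate, had 0.34 ± 0.19, from a probe that shares a run of 20 bases with a probe of 1 other gene. Nanos3, a survival factor of primordial germ cells, had -0.22 ± 0.32, and Dnd1, an RNA-binding protein of the same cells, -0.25 ± 0.50. None of the 6 passed limma, with Ddx4 having the smallest p.

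Genes of the piRNA pathway and nuage had a median ratio of 1.47 over 8 tested members of 10. Of the 8, 7 were higher in mutant+CT on every array, against 20.3% of all genes. This median and count depend in part on the background filter. Asz1 and Tdrd9 passed it through mutant+CT alone, where they are high. The dim Tdrd1 and Tdrd6, at 0.29 ± 0.33 and 0.04 ± 0.17, did not pass it. Tdrd5, a tudor-domain protein of nuage, had intensities of 1123, 4532 and 1762 in mutant+CT, against 447, 1255 and 370 in wild type. Mutant+CT was at least 2-fold higher within every array, while the groups overlapped because replicate 2 was brighter than the other arrays in both channels. Its ratio was 1.81 ± 0.46 (SD, n = 3; limma adjusted p = 0.0901), its other 2 probes gave 1.71 ± 0.25 and 1.49 ± 0.44, and the probe used lies at chr1:158185528-158185587 of mm9. The probe at 1.49 shares a run of 20 bases with probes of 2 other genes.

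Piwil2, the PIWI protein MILI that carries piRNAs, had 274, 783 and 1542 in mutant+CT, against 118, 298 and 124 in wild type. Again every array showed mutant+CT at least 2-fold higher, with overlap only between mutant+CT of replicate 1 and wild type of replicate 2. The ratio was 2.08 ± 1.35 (limma adjusted p = 0.173), from a probe at chr14:70772497-70772556 of mm9. Mael (Maelstrom), which acts in transposon silencing, had 2599, 4193 and 10139 in mutant+CT, against 1652, 2557 and 740 in wild type. Its groups did not overlap, and its ratio was 0.65, 0.71 and 3.78 on the 3 arrays. Mov10l1, the helicase that feeds piRNA precursors into processing, had 1.49 ± 1.23, Tdrd9, a helicase with a tudor domain, 1.03 ± 0.68, and Stk31, a kinase-like tudor protein, 0.99 ± 1.04.

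Asz1, a scaffold that ties nuage to mitochondria, was not well above background in wild type on any array and above it in mutant+CT on every array. It was at least 2.7-fold higher in mutant+CT, a bound from the mean of mutant+CT against, on each array, the lowest wild-type signal called above background or the probe's own signal, whichever was higher. Such bounds use single channels and are open to dye bias, as the swap is not balanced. Gtsf1, a zinc-finger partner of PIWI proteins, was the tested piRNA member not higher on every array, and its ratio was -1.19, 2.12 and 2.96 on replicates 1, 2 and 3. Tdrd1 was above background on 2 arrays in mutant+CT and on 0 in wild type, with a ratio of 0.29 ± 0.33, and Tdrd6 was above background in neither condition on any array. Both encode tudor proteins of nuage and were not tested.

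Genes of the chromosome axis and of synapsis ranged from the second highest member to the second lowest. Hormad1, a HORMA-domain protein that coats unsynapsed chromosome axes, had intensities of 402, 762 and 3406 in mutant+CT, against 133, 332 and 139 in wild type. The groups did not overlap, and replicate 3 stood apart with a ratio of 4.61, against 1.20 on replicate 2. The mean was 2.47 ± 1.86 (SD, n = 3; limma adjusted p = 0.202) at chr3:95389076-95389135 of mm9, and a second probe, not above background in wild type on any array, was at least 4.91-fold higher in mutant+CT. Syce1, a central element protein of the synaptonemal complex that zips homologs together, had 1016, 2810 and 2953 in mutant+CT, against 498, 540 and 572 in wild type. Its wild-type values were close together and its groups did not overlap. The ratio was 1.93 ± 0.78 (limma adjusted p = 0.112), from a probe at chr7:147963253-147963312 of mm9.

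Hormad2, the relative of Hormad1 on the same axes, averaged 1.33 ± 1.03, from 0.27, 1.37 and 2.34 on replicates 1, 2 and 3. Sycp3, the main axial element protein, had 809, 5190 and 9195 in mutant+CT, against 1482, 4431 and 1042 in wild type. The direction of Sycp3 thus turned between arrays, with ratios of -0.87, 0.23 and 3.14, and a second probe gave -0.03, -1.04 and 4.07. Syce2, the partner of Syce1 in the central element, had 4207, 3644 and 3625 in mutant+CT, against 6070, 4740 and 3150 in wild type, with a ratio of -0.24 ± 0.39. Syce1 and Syce2, which work in the same structure, therefore differed on every array: the ratio of Syce1 was above 1 on each and that of Syce2 was at most 0.20. Sycp1, the transverse filament, was above background on 2 arrays in each condition, with 1.79 on replicate 3 and -0.06 and -0.26 on replicates 1 and 2. Sycp2, an axial element protein, was above background on 1 array in mutant+CT and 0 in wild type. Neither was tested.

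The 3 meiotic cohesin subunits, which hold sister chromatids together during meiosis, differed in sign on replicate 1. Stag3 had 2320, 4106 and 5631 in mutant+CT, against 1426, 1923 and 911 in wild type, and its groups did not overlap. Its ratio was 1.47 ± 1.02 (SD, n = 3; limma adjusted p = 0.203) at chr5:138753402-138753461 of mm9. Smc1b had 926, 3132 and 8145 in mutant+CT, against 1345, 2070 and 444 in wild type. On replicate 3 its ratio was 4.20, on replicate 1 it was -0.54, and the SD of 2.47 exceeded the mean of 1.42. Rec8, the kleisin subunit, had -0.87, 0.27 and 1.13.

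Of 5 recombination genes 4 were tested, with a median ratio of 0.49. Of these 4, 1 was higher on every array, near the share of 20.3% over all genes. Tex11, an X-linked gene needed for crossovers, had 181, 342 and 753 in mutant+CT, against 145, 162 and 157 in wild type, with no overlap between the groups. Its ratio was 1.22 ± 0.97 (SD, n = 3; limma adjusted p = 0.251), from a probe at chrX:98034007-98034066 of mm9, and a dimmer second probe gave 0.67 ± 0.95. Dmc1, the meiotic strand-exchange enzyme, had -0.27, -0.10 and 1.91, and its other 2 probes averaged 0.28 and 0.31. Tex15, which acts in meiotic recombination, had 0.47 ± 0.55, and Mei1, needed for the breaks that start recombination, 0.09 ± 0.24. Spo11, the enzyme that makes those breaks, was above background on 1 array in mutant+CT and on 2 in wild type and was not tested, with a ratio of -0.20 ± 0.18.

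Cyct, the testis form of the electron carrier cytochrome c, had the highest ratio of all members. Its intensity was 2115, 5407 and 10244 in mutant+CT, against 484, 343 and 305 in wild type. Every mutant+CT value lay more than 4-fold above every wild-type value. The ratio was 2.13, 3.98 and 5.07 on the 3 arrays, or 3.73 ± 1.49, a mean fold of 13.2 (SD, n = 3; limma adjusted p = 0.0941), from a probe at chr2:76192113-76192172 of mm9. Cyct passed limma on Agilent's processed signals (adjusted p = 0.0481, beside 1.42% of all genes), with a trended and robust variance prior (0.0466, 0.863%), in a separate-channel fit (0.0225, 2.34%) and without replicate 1 (0.0244). Over all 16 alternatives its adjusted p went up to 0.231. On Agilent's processed signals 8 members were at least 2-fold higher on every array, against 3.72% of all genes, and 4 were on the authors' deposited table, against 1.75%.

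Slc25a31, the testis ADP/ATP carrier of mitochondria, had 206, 376 and 668 in mutant+CT, against 144, 176 and 137 in wild type, and its groups did not overlap. Brdt, the testis member of the BET bromodomain family, had 0.42 ± 0.68 at the probe used and -0.38 ± 0.46 at a second, so its probes disagreed in sign. Taf7l, a testis relative of the TFIID subunit Taf7, lost its spot on replicate 1 to an outlier mark and was not tested. On replicates 2 and 3 it had 1867 and 1035 in mutant+CT, against 1063 and 438 in wild type, but its probe shares a run of 20 bases with probes of 2 other genes. Tex101, a surface protein of germ cells, had 494, 2144 and 3075 in mutant+CT, against 308, 632 and 196 in wild type. It was higher on every array with overlapping groups, and its ratio was 2.14 ± 1.68 (limma adjusted p = 0.215) at chr7:25453040-25453099 of mm9. Tex14, which keeps germ cells joined by bridges, had 1.36 ± 1.14.

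**Figure D3:**
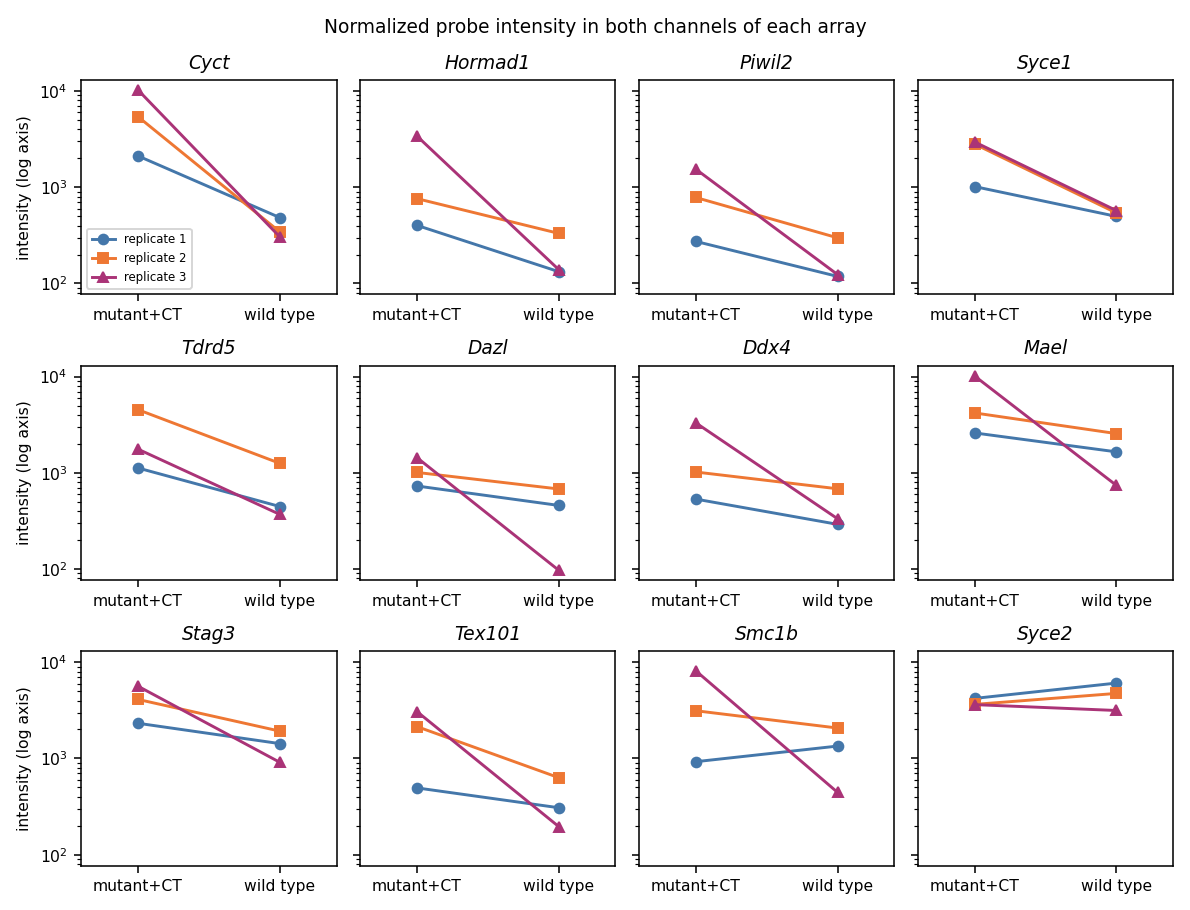
Normalized intensity (log axis) of 12 members in mutant+CT and wild type, with a line for each array. In Cyct and Syce1 the wild-type points lie close together, in Dazl, Mael and Smc1b replicate 3 has the highest mutant+CT and the lowest wild-type point, and Syce2 is nearly level.

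Several members have close relatives that act in all cells, and these were set beside them on the same arrays. Cycs, the somatic cytochrome c, had a log2 ratio of 0.34 ± 0.26, against 3.73 ± 1.49 for Cyct, and the difference within arrays was 1.87, 3.84 and 4.43. A second Cycs probe had 0.51, -0.69 and 0.18. The somatic ADP/ATP carriers Slc25a4 and Slc25a5 had 0.04 ± 0.24 and 0.59 ± 0.51, against 1.30 ± 0.90 for Slc25a31, and a second Slc25a5 probe had 2.07, -1.90 and 2.61. Among cohesins, Stag1 and Stag2 had 0.14 ± 0.19 and -0.49 ± 0.48 beside Stag3 at 1.47 ± 1.02, Smc1a had -0.45 ± 0.63 beside Smc1b, and Rad21 -0.03 ± 0.23 beside Rec8. Ddx3x had -0.29 ± 0.18 beside Ddx4, but its probes disagreed in sign, since the other 2 gave 0.79 ± 0.61, higher on every array, and -0.23 ± 0.21. Mov10 had 0.62 ± 0.46 beside Mov10l1. Beside Brdt, Brd2 had -0.04 ± 0.19 and Brd3 -1.43 ± 0.15 (limma adjusted p = 0.0941), while 2 other Brd3 probes gave 1.27 ± 0.47 and -0.02 ± 0.60. Taf7 had 0.61, -1.67 and 1.74. The 12 relatives had a median of 0.01, with 3 higher and 3 lower on every array by the probes used (20.3% and 17.4% of all genes), Brd3 and Ddx3x among the lower ones. With 3 arrays, an exact sign-flip test of a difference cannot go below p = 0.25, so none was made.

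**Figure D4:**
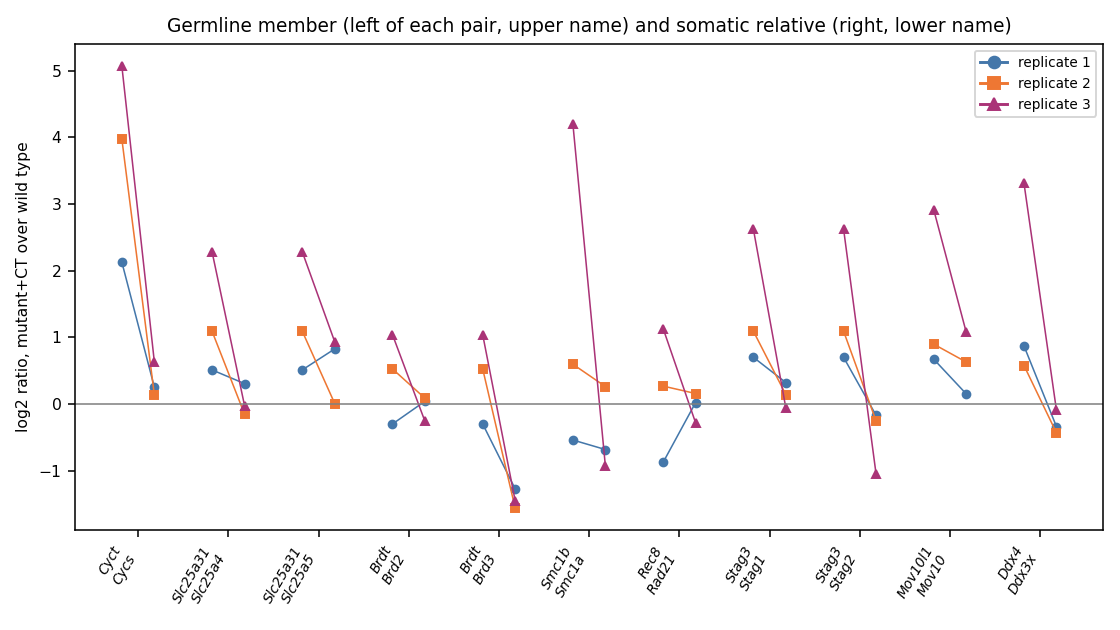
Log2 ratio of mutant+CT over wild type for each germline member (left point of a pair) and a somatic relative (right point), joined within each array. Cyct lies above Cycs on all 3 arrays, and Slc25a31 lies above Slc25a5 on 2 of 3.

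Of 53 other germline and meiosis genes 43 were tested, with a median ratio of 0.59 and 0 past limma's adjusted threshold. On every array 20 were higher and 1 lower (20.3% and 17.4% of all genes), and 2 were at least 2-fold higher (1.9% of all genes). Fkbp6, a cochaperone of the piRNA pathway, had 2.07, 2.60 and 3.58, or 2.75 ± 0.77 (limma adjusted p = 0.0844), and a second probe gave 2.13 ± 0.76. Tuba3a, a testis tubulin, had 2.26 ± 1.04, but its near-identical copy Tuba3b may share its signal. The list also had members with a mean below 0, the lowest being the meiotic helicase Hfm1 at -0.61 ± 0.57, named after its values were seen.

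Markers of later germ cells and of the gonad had medians near 0, with single markers on either side. Of 12 spermatid markers 5 were tested, with a median of -0.01, and Prm1, Tnp2, Acrv1, Spaca1, Odf1, Akap4 and Pgk2 were not well above background on all arrays in either condition. The summed intensity of the tested 5 was 518 to 1167 in mutant+CT and 548 to 676 in wild type, and the smallest p was that of Zpbp at -0.34 ± 0.18. Ldhc had the highest mean of the 5 at 0.83, from -0.42, 0.56 and 2.34 on replicates 1, 2 and 3. Its second probe gave -0.44, 0.45 and 1.70, so both were highest on replicate 3. Of the 5, 2 had a mean above 0, and 0 were higher and 2 lower on every array (20.3% and 17.4% of all genes). Of 11 oocyte markers 7 were tested, with a median of 0.17, and the ovary-specific Figla, Nobox, Zp2 and Bmp15 were not. The smallest p was that of Nlrp5 at 0.99 ± 0.58, and the summed intensity was 1450 to 1589 in mutant+CT and 1189 to 1661 in wild type. Of the 7 oocyte markers, 6 had a mean above 0, and 3 were higher and 0 lower on every array (20.3% and 17.4% of all genes). The groups did not overlap for 2, Nlrp5 and Oosp1 at 0.72 ± 0.28, both higher in mutant+CT, against 9.51% of all genes. Markers of gonadal somatic cells had a median of -0.08 over 8 of 13, with Hsd3b1 at 0.96 ± 0.23, and Amh, Fshr, Cyp11a1, Insl3 and Lhcgr were not tested. Only 2 of the 8 had a mean above 0, Hsd3b1 and Inhba. Inhba had 0.78, -0.09 and 2.82 on replicates 1, 2 and 3, or 1.17 ± 1.49. Ldhc, Oosp1 and Inhba were named after their values were seen. The 12 markers of differentiated embryoid body cells had medians of 1.43, -0.66 and -1.32 on replicates 1, 2 and 3, with 4 higher and 5 lower on every array (20.3% and 17.4% of all genes). Their part in the germline ratios was not tested.

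The naive pluripotency markers, which undifferentiated stem cells express, were also highest in ratio on replicate 3. Their median was 0.80, 0.87 and 2.18 on replicates 1, 2 and 3 and 1.51 over the 22 markers. Of these markers, 17 were higher on every array and 0 lower, against 20.3% and 17.4% of all genes. Their summed intensity was 197890 to 603260 in mutant+CT and 92119 to 162711 in wild type, without overlap. In single channels the naive markers and the germline members were alike in some counts and differed in others. Mutant+CT was highest on replicate 3 for 20 of 22 naive markers and 25 of 31 members (32.9% of all genes). Wild type was lowest on replicate 3 for 9 naive markers and 20 members (31.6% of all genes). Mutant+CT was lowest on replicate 1 for 7 of 22 naive markers and 27 of 31 members (37.5% of all genes). Wild type was highest on replicate 2 for 6 naive markers and 21 members (39.3% of all genes). Dppa2, with the smallest p, had 1.65 ± 0.18, and the largest ratio by the probes used was that of Nr0b1 at 2.67 ± 0.91. A second, dimmer probe of Tfcp2l1 gave 4.35 ± 1.08, against 1.93 ± 1.78 at the probe used. Klf4 had -0.68 ± 1.01 and Nanog 0.09 ± 0.09. The Nanog probe was dim, with 101, 126 and 116 in mutant+CT and 101, 118 and 102 in wild type, the offset of 50 included. Its ratio near 0 therefore says little about Nanog. All 22 were above background in both conditions. Among them, Prdm14 was also counted with the other germline genes and Tet2 with the DNA methylation list below. The part of undifferentiated stem cells in the germline ratios was not tested.

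The last lists hold genes of PRC1.6 and of DNA methylation, both its writers and its erasers, and H3K9 silencing. The 14 PRC1.6 subunits had a median of 0.03, with 3 higher and 2 lower on every array (20.3% and 17.4% of all genes). The lower ones were Ring1 at -0.71 ± 0.62 and Yaf2 at -0.61 ± 0.41, with -0.60 ± 0.22 at a second Yaf2 probe. E2f6 had 0.00 ± 0.50, Mga -0.06 ± 0.09 and Max 0.10 ± 0.19, and Rybp, with the smallest p, had 0.77 ± 0.51. The 12 genes of the methylation list had a median of 0.04, with 4 higher and 0 lower on every array (20.3% and 17.4% of all genes). At an unadjusted p under 0.05 in limma, where 9.04% of all genes were higher, stood the same 4, Tet1, Dnmt3l, Dnmt3b and Tet2. Within them Tet1, an enzyme that oxidises methylated cytosine, had 1.86, 2.09 and 2.29, or 2.08 ± 0.22 (limma adjusted p = 0.0735), and its other probes gave 1.94 ± 0.40 and 2.08 ± 0.20. Dnmt3l, the germ cell cofactor of methylation, had 1.47 ± 1.29. Tet2, a relative of Tet1 that is also among the naive pluripotency markers, had 0.75 ± 0.41. The methyltransferase Dnmt3b had 0.99 ± 0.35, and its other probes gave 1.65 ± 0.83 and 0.26 ± 0.29. E2f6, Mga, Max, Ring1, Yaf2, Dnmt3l, Dnmt3b and Tet2 were named after their values were seen.

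**Figure D5:**
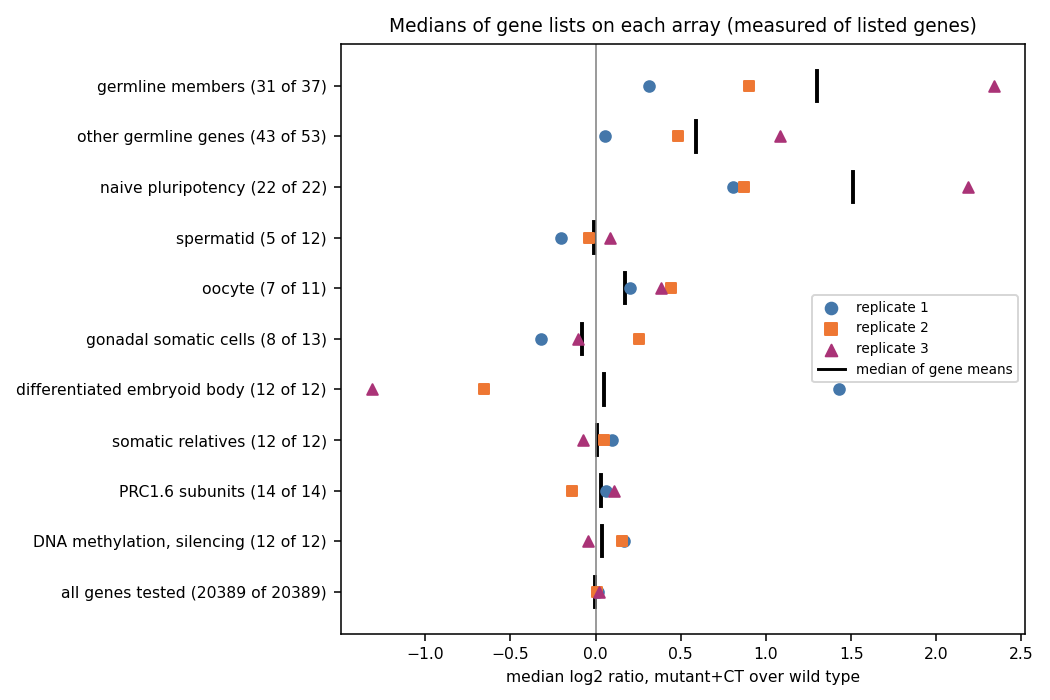
Median log2 ratio of mutant+CT over wild type for each gene list on the 3 arrays (points) and over the gene means (bars). The germline members and the naive pluripotency markers reach 2.34 and 2.18 on replicate 3, and the differentiated embryoid body markers spread from 1.43 on replicate 1 to -1.32 on replicate 3.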

How the data were processed

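RNA of 3 mutant+CT and 3 wild-type embryoid body cultures was hybridised on 3 Agilent 2-colour arrays of 1 slide, with 300 ng of cRNA per dye, per the labels. The deposited scanner files hold intensity values, the spot mean and local background median per dye and Agilent's processed signals, as written by Agilent's Feature Extraction software. The deposited value table holds the authors' log2 ratios, and the submitters' processing notes name limma. Its exact steps stay unknown. The column medians were -0.02, 0.01 and -0.02, and the table followed the ratios computed here, mutant+CT over wild type, with correlations of 0.994, 0.996 and 0.998 across spots and slopes of 1.03, 0.97 and 0.97. It served as an alternative.

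Ratios came from limma 3.58.1 (R 4.3.3, with statmod 1.5.0 for the separate channels): normexp background correction with an offset of 50, loess within arrays with control spots at weight 0, spots marked as outliers (454, 234 and 507 on replicates 1 to 3) set to missing, and the sign turned by dye. No spot was saturated. A probe was kept when well above background on all 3 arrays in either condition (26317 of 39429), and each gene was represented by its brightest kept probe. Intensities in the report are after Aquantile scaling of average intensities between arrays, include the offset and are not comparable between probes. Gene names came from RefSeq (GRCm38.p6) by accession for 30708 spots and otherwise from the files; probe positions are the files' mm9 coordinates, and no mm9 annotation was used, so exon or UTR is not stated. The mean ratio of each gene was tested for a difference from 0 by limma's lmFit and eBayes with Benjamini-Hochberg adjustment over 20389 genes, and probes over all kept probes. Steps were tested on simulated data. The members, lists and naming rule (2-fold on every array, smallest p per role or list, somatic relatives) were chosen with earlier results of these data known. The number of arrays limits the precision, and genes are not independent replicates. Some somatic relatives are not reported here.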

Additional observations from a re-analysis of the deposited data

How the results depend on the processing

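The median of the members kept its sign under every alternative run, between 0.68 (without replicate 3) and 1.80 (without replicate 1) on the log2 scale, and 0 members were at least 2-fold lower on every array under each alternative that has values per array. The number of members past limma's adjusted threshold, 0 in the fit reported, was 1 (Cyct) on Agilent's processed signals, 1 with a trended and robust variance prior and 1 in the separate-channel fit with no replicate block, which replaces the pairing of both samples on an array by an estimated correlation. It was 0 to 3 when 1 array was left out. The number at least 2-fold higher on every array, 5 in the fit reported, was 8 on Agilent's processed signals (3.72% of all genes), 4 on the deposited table (1.75%) and 5 to 13 when 1 array was left out. The share of genes called by limma was 1.42%, 0.863% and 2.34% in these 3 alternatives, and the cause of the differences was not tested. The count of members past the adjusted threshold stayed at 0 with no background subtraction, median centring, Aquantile scaling, either other filter, probes averaged per gene, a dye term and on the deposited table, and also when probes missing on 1 array were kept or GAA-repeat probes left out, both chosen after seeing the data. Over the tested members, 484 values under an alternative kept their sign and their side of the threshold and 6 passed it (4 of Cyct, 1 of Syce1 and 1 of Gtsf1). The other 4 changed sign, all without replicate 3, so that leaving out 1 array gave -0.32 to 1.68 for Sycp3, -0.18 to 0.91 for Dmc1, -0.30 to 0.70 for Rec8 and -0.050 to 0.17 for Mei1. Without replicate 3, 24 of 31 means were above 0; the cause was not tested. The dye term and the separate-channel fit give no value per array and so no 2-fold counts. The fit reported pairs the 2 samples of each array. Probes near background limit Asz1, Mei1, Tdrd9 and the 5 dim untested members, and Nanog among the naive pluripotency markers.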
